A study of Mus musculus with 8 samples.

Results

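Fc receptors bind the constant region of antibodies and couple antibody recognition to cells of the immune system. The 5 genes described here are *Fcgr3* (the activating IgG receptor FcγRIII), *Fcgr2b* (the inhibitory IgG receptor FcγRIIb), *Fcgr4* (the activating IgG receptor FcγRIV), *Fcer1g* (the signalling chain FcRγ shared by activating Fc receptors) and *Fcgrt* (the heavy chain of the neonatal Fc receptor FcRn). They were chosen by their symbols and by their measured normalised read counts (CPM, a gene's reads scaled to a common library size) across these same libraries, and they are 5 of the 48321 genes in the count tables. Their levels are therefore given as a description, and nothing is read from the calls that the fit across all genes made on them.

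RNA was sequenced from splenic CD8+ T cells of C57BL/6 mice in 8 libraries, 2 in each of 4 groups. The groups were WT at day 0, KO at day 0, WT after 5 days of culture in vitro and KO after 5 days of culture in vitro. Per the series description the mutant line was *Satb1* F/F; *E8I-cre*, a floxed *Satb1* allele with a Cre driver active from the mature CD8 stage on. Sample labels give the genotype as WT or KO alone, so whether the WT mice carried the floxed alleles or the Cre is not given in the sources used here. The age of the mice, the composition of the culture and whether the 2 libraries of a group came from separate mice are likewise not given, and p-values measure the spread between these libraries, which may be technical. Between 4170126 and 11117971 reads per library were assigned to genes, and the deepest library was KO-labelled replicate 1 of day 0.

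The genotype labels were checked on *Satb1*, the gene that encodes the chromatin organiser SATB1. At day 0, *Satb1* stood at 97.4 and 91.2 CPM in the WT libraries and at 144 and 124 CPM in the KO-labelled libraries. At day 5 it stood at 96.2 and 116 CPM in WT and at 56.4 and 62.1 CPM in the KO-labelled libraries. *Satb1* was thus lower in the KO-labelled libraries at day 5 alone, with a log2 fold change of -0.84 ± 0.15 (SE, edgeR quasi-likelihood test, adjusted p = 0.0162), and at day 0 the values went against the label. These counts run over the whole gene and do not separate a deleted exon from the rest. The mutant groups are therefore called the KO-labelled libraries throughout.

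The defining genes of CD8 T cells were abundant, and 6 of them were summed (*Cd3e*, *Cd3g*, *Cd8a*, *Cd8b1*, *Cd2* and *Cd5*). At day 0 their sum lay between 10465 and 11148 CPM in WT and, lower, between 9941 and 10078 CPM in the KO-labelled libraries. At day 5 it lay between 6932 and 7693 CPM over both genotypes. Of the defining markers of cells known for Fc receptors, some were at or near 0 and others were present. Among those of macrophages and monocytes, *Adgre1* and *Cd14* had at most 1 count in any library. *Ly6c2*, *Cd68*, *Csf1r* and *Itgam* reached group means of 560, 57.3, 9.64 and 4.19 CPM. Among those of mast cells and basophils, *Fcer1a* had no count, while *Kit* and *Cpa3* reached 6.44 and 3.11 CPM. Among those of B cells, *Ms4a1* and *Pax5* had at most 2 and 5 counts, while *Cd79b* and *Cd74* reached 152 and 29.9 CPM. Among those of NK cells, *Ncr1*, *Klrb1c* and *Tyrobp* had at most 4, 6 and 4 counts. *Nkg7* and *Eomes* of that list, which CD8 T cells also express, reached group means of 4128 and 50.1 CPM. In bulk RNA, fewer cells with a transcript and less transcript per cell cannot be told apart.

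Activating Fcγ receptors of the mouse, FcγRIII among them, depend on the FcRγ chain, which carries an immunoreceptor tyrosine-based activation motif (ITAM) and recruits Src and Syk family kinases. FcγRIIb carries an inhibitory motif in its own cytoplasmic tail and recruits lipid and protein phosphatases. FcRn pairs with β2-microglobulin and returns IgG and albumin from endosomes to the cell surface, and it does not signal through an ITAM. These receptors are known mostly from myeloid cells, B cells, NK cells and endothelium, and T cells are usually described as poor in classical Fcγ receptors.

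In GRCm38 coordinates, 4 of the 5 genes lie close together on mouse chromosome 1. *Fcgr2b* occupies chr1:170958617-170976547 on the minus strand, *Fcgr4* chr1:171018920-171029761 on the plus strand, *Fcgr3* chr1:171051174-171064935 on the minus strand and *Fcer1g* chr1:171229572-171234365 on the minus strand. *Fcgrt* lies apart, at chr7:45092990-45103851 on the minus strand. *Fcgr3* and *Fcgr2b* are related in sequence, and the following stretch is shown because it is identical in both genes and longer than a read. It is the longest run that their coding sequences share, 129 bases across the junction of exons 3 and 4, with the bases of exon 4 in capitals. In *Fcgr3* it spans chr1:171054167-171057792 and in *Fcgr2b* chr1:170966674-170968081, both on the minus strand and each with an intron inside the interval.
Fcgr3 and Fcgr2b, shared coding run: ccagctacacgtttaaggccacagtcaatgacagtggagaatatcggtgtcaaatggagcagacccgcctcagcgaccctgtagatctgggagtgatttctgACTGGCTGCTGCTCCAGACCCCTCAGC
Reads were 50 bases long. Of the 1733 different 50-base windows in the annotated transcripts of *Fcgr3*, 166 (9.58%) also occur in *Fcgr2b*, and no window of *Fcgr3* occurs in any other annotated gene. The same 166 windows are 2.92% of the windows of *Fcgr2b*, of whose 5685 windows 395 (6.95%) occur in other annotated genes, 146 in all. *Fcgr4*, *Fcgrt* and *Fcer1g* shared no window with another gene. The summary rows of the count tables set reads with more than 1 alignment apart from the genes, so a read from the shared run may be missing from both genes, and the levels of *Fcgr3* and *Fcgr2b* are uncertain to that extent.

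*Fcgr3*, the activating receptor, was lower in the KO-labelled libraries on both days, and its ratio between genotypes was above that of *Fcgrt* on each. At day 0 it had 35 and 14 counts in WT, or 6.23 and 3.15 CPM, and 7 and 2 counts in the KO-labelled libraries, or 0.599 and 0.365 CPM. At day 5 it had 63 and 50 counts in WT, or 11.1 and 12.0 CPM, and 3 and 3 counts in the KO-labelled libraries, or 0.551 and 0.566 CPM. Every WT library was above every KO-labelled library on both days, and the groups did not overlap. With 2 libraries against 2, groups often fail to overlap by chance alone. The share of all genes without overlap was not counted, so non-overlap is only a description here and below. At day 0 the mean was 4.69 ± 2.18 CPM (SD, n = 2) in WT, with 0.482 ± 0.166 under the KO label. After 5 days it was 11.5 ± 0.661 in WT, with 0.558 ± 0.0110 under the KO label.

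The fitted log2 fold change of *Fcgr3*, KO-labelled minus WT, was -3.16 ± 0.53 (SE) at day 0 and -4.32 ± 0.53 at day 5. As a ratio of summed counts, WT was 9.30 times the KO-labelled level at day 0, with a 95% exact interval of 4.52 to 21.5, and 20.6 times at day 5, with an interval of 9.15 to 57.2. These intervals cover counting error only. The 2 WT libraries of day 0 differed by more than those of day 5, and the day 0 value was -2.57 without WT replicate 1 and -3.55 without WT replicate 2. The difference of the 2 differences was -1.16 ± 0.85, and it was -1.76 without WT replicate 1 of day 0 and -0.69 without KO-labelled replicate 1 of day 0. How *Fcgr3* relates to *Satb1* was not tested, since the *Satb1* counts run over the whole gene and do not show whether an exon was deleted.

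Between the days, *Fcgr3* was higher after culture in WT, and its levels overlapped in the KO-labelled libraries. In WT the log2 fold change from day 0 to day 5 was 1.27 ± 0.39, and it was 1.87 without WT replicate 1 and 0.89 without WT replicate 2 of day 0. In the KO-labelled libraries it was 0.11 ± 0.74, on 9 summed counts at day 0 and 6 at day 5, and it was 0.59 without replicate 1 and -0.10 without replicate 2 of day 0. The ratio of those summed counts, day 5 over day 0, was 1.07 with an exact interval of 0.312 to 3.35, so a change of about 3-fold either way was not detectable at this depth.

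*Fcgr2b*, the inhibitory receptor, was near the limit of detection except in cultured WT cells. It had 3 and 1 counts in WT and 0 and 3 counts in the KO-labelled libraries at day 0, and these groups overlapped. After 5 days it had 8 and 11 counts in WT, or 1.41 and 2.64 CPM, and 0 and 3 counts in the KO-labelled libraries, or 0 and 0.566 CPM. The day 5 groups did not overlap. The ratio of summed counts, WT over KO-labelled, was 6.91 at day 5 with an exact interval of 2.03 to 36.5, and in WT the ratio of day 5 to day 0 was 4.85 with an interval of 1.61 to 19.6. *Fcgr2b* and *Fcgr3* thus both had their most counts in cultured WT cells. *Fcgr3* made up 92.5% of the summed counts of the pair in WT at day 0 (95% exact interval 81.8% to 97.9%) and 85.6% in WT at day 5 (78.4% to 91.1%), shares that overlap within counting error.

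*Fcgr4*, the other activating receptor of the cluster, lies between *Fcgr2b* and *Fcgr3* and was essentially not seen. It had 1 count in WT replicate 2 at day 5 and 0 counts in the other 7 libraries. A count of 0 still allows a level of up to 3 counts, which is between 0.257 and 0.675 CPM in those libraries.

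*Fcer1g*, the chain through which FcγRIII signals, did not follow *Fcgr3*. It had 2 and 0 counts in WT and 5 and 0 counts in the KO-labelled libraries at day 0, and the groups overlapped. After 5 days it had 1 and 0 counts in WT and 8 and 4 counts in the KO-labelled libraries, or 1.47 and 0.755 CPM in the latter. The day 5 groups did not overlap, and the order was the reverse of that of *Fcgr3*. The ratio of summed counts at day 5, KO-labelled over WT, was 10.995 with an exact interval of 1.63 to 470, which rests on 12 counts against 1. In cultured WT cells, where *Fcgr3* was highest, *Fcer1g* had 1 count in all.

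*Fcgrt*, the FcRn heavy chain, had the most counts of the 5 genes in every library. At day 0 it stood at 44.3 and 37.8 CPM in WT (249 and 168 counts) and at 18.4 and 17.9 CPM in the KO-labelled libraries (215 and 98 counts). After 5 days it stood at 14.6 and 16.3 CPM in WT (83 and 68 counts) and at 6.42 and 4.91 CPM in the KO-labelled libraries (35 and 26 counts). The libraries labelled KO were below the WT libraries on both days, without overlap. The day 5 libraries were also below the day 0 libraries of the same genotype.

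The fitted log2 fold change of *Fcgrt*, KO-labelled minus WT, was -1.18 ± 0.20 (SE) at day 0 and -1.44 ± 0.24 at day 5, and the difference between them was -0.26 ± 0.31, and it ranged from -0.47 to -0.08 with 1 library left out, the ends being those without KO-labelled replicates 1 and 2 of day 5. From day 0 to day 5 it was -1.42 ± 0.21 in WT and -1.68 ± 0.23 in the KO-labelled libraries. Unlike *Fcgr3*, *Fcgrt* was thus lower after culture in both genotypes. Its order over the groups was WT at day 0, KO-labelled at day 0, WT at day 5 and KO-labelled at day 5, at 41.1 ± 4.61, 18.1 ± 0.370, 15.5 ± 1.23 and 5.67 ± 1.07 CPM (SD, n = 2). The KO-labelled libraries of day 0 and WT at day 5 lay closest, without overlap.

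**Figure D1:**
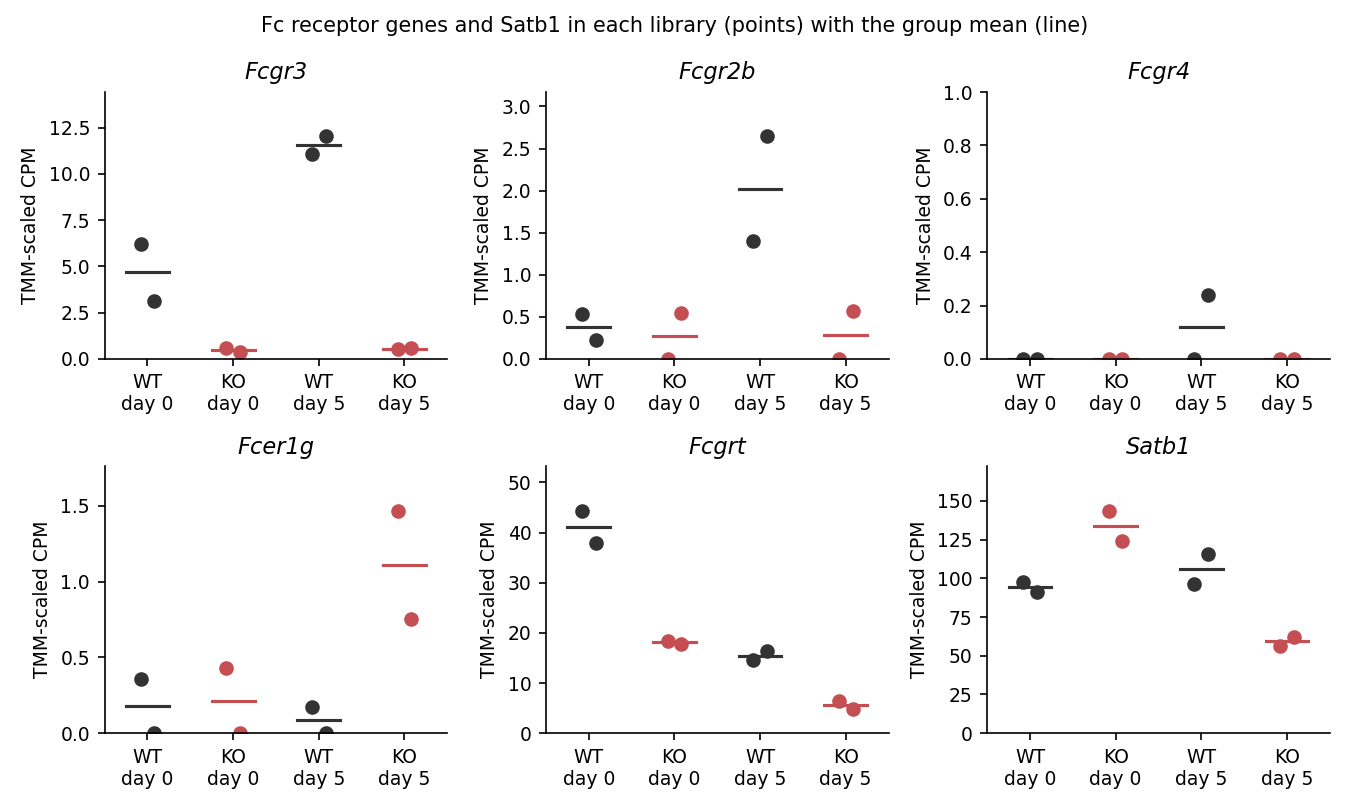
Level of each Fc receptor gene and of *Satb1* in TMM-scaled CPM (vertical axis, linear, from 0, with its own scale in each panel) in the 4 groups (horizontal axis), with 1 point per library and a line at the mean of the 2 libraries. *Fcgr3* is at 11.1 and 12.0 CPM in cultured WT cells and at 0.551 and 0.566 CPM in the cultured cells labelled KO, and *Fcer1g* is highest in the latter.

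Compared per kilobase of exon, *Fcgrt* and *Fcgr3* lay closest in cultured WT cells. In WT at day 0, *Fcgrt* stood at 19.5 ± 2.19 CPM per kilobase (SD, n = 2) and *Fcgr3* at 2.70 ± 1.26. In WT at day 5, they stood at 7.36 ± 0.586 and 6.65 ± 0.381, a gap of about the spread between libraries. In the KO-labelled libraries, *Fcgrt* remained above *Fcgr3* on both days, at 8.62 ± 0.176 against 0.277 ± 0.0954 at day 0 and 2.70 ± 0.510 against 0.322 ± 0.00635 at day 5. The other 3 genes stood between 0 and 0.350 CPM per kilobase in every group mean except *Fcer1g* in the KO-labelled libraries at day 5, at 1.27 ± 0.577.

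Of the 5 genes, 2 (*Fcgr3* and *Fcgrt*) passed the filter on low counts and entered the fit of 12597 genes. In that fit, both were called lower (adjusted p under 0.05) in the KO-labelled libraries at day 0, where 1.8% of all tested genes were called, 0.913% higher and 0.889% lower. Both were called lower at day 5 too, where 1.63% were called, 1.31% higher and 0.318% lower. In WT culture *Fcgr3* was called higher and *Fcgrt* lower, against 48.3% of all genes called, 24.7% higher and 23.6% lower. In culture of the KO-labelled cells *Fcgrt* was called lower, against 50.2% called, 26.2% higher and 24% lower. Neither was called in the genotype by day interaction, where 0.159% were called, 0.0794% in each direction. Since the genes were chosen on these values, nothing is read from these counts of calls.

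The sequence upstream of the 2 genes that were lower in the KO-labelled libraries on both days is shown so that they can be compared. Each is the stretch before the RefSeq transcript start (GRCm38.p6) that lies outside annotated exons, within 250 bases. For *Fcgr3* it spans chr1:171059404-171059626, inside the gene body, since longer annotated transcripts of *Fcgr3* start further upstream. For *Fcgrt* it spans chr7:45103852-45104072. Both are read on the minus strand, and capitals mark a match to the PU.1 box, the letters GAGGAA on either strand.
Fcgr3 upstream: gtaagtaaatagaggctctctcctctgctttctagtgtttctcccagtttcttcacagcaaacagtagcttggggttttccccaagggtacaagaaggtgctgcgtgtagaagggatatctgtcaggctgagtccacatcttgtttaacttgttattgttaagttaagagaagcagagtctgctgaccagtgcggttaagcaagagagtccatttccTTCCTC
Fcgrt upstream: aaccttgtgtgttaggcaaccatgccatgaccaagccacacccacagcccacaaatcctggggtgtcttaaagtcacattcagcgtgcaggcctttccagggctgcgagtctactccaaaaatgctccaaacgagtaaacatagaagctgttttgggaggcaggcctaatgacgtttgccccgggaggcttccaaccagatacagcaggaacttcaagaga
PU.1 is a transcription factor of myeloid and B cells. Its box was found once upstream of *Fcgr3*, at the end of the stretch shown, and once upstream of *Fcgr4*, and had no match upstream of *Fcgrt*, *Fcer1g* and *Fcgr2b*. Of 32536 such 250-base windows over all genes, 23.4% held it. The TATA box (TATAAA, held by 12.3% of windows) and the interferon-activated GAS element (TTCNNNGAA, 7.04%) had no match in any of the 5 genes. The E-box (CANNTG, 66.2%) was found once in *Fcgr2b*, 2 times in *Fcgr4* and once in *Fcer1g*. A match describes these letters and no binding was measured.

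Most other Fc receptors were at or near 0 too, and *Fcmr* in cultured cells was the most abundant of them. Of 15 further Fc receptor and Fc receptor-like genes, 3 reached 1 CPM in a group, 10 had at most 7 counts in any library and 2 (*Fcer1a* and *Fcamr*) had none. *Fcgr1*, the high-affinity IgG receptor, had at most 3 counts. *Fcmr*, the IgM receptor, had 2 and 1 counts in WT and 1 and 1 in the KO-labelled libraries at day 0. After 5 days it had 77 and 33 counts in WT, or 13.5 and 7.93 CPM, and 30 and 34 counts in the KO-labelled libraries, or 5.51 and 6.42 CPM. *Fcmr* rose with culture in both genotypes, by a ratio of summed counts of 37.5 in WT (exact interval 12.5 to 184) and 51.2 in the KO-labelled libraries (13.6 to 431). The adjusted p was 1.64e-05 and 1.78e-05 (edgeR). The gene passed the filter on low counts only through its day 5 counts, so these calls are given as a description. The day 5 groups did not overlap, with a log2 fold change of -0.86 ± 0.38 that did not pass the test (adjusted p = 0.328, edgeR).

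*Trim21*, a cytosolic receptor for antibody-coated particles, moved the other way. It stood at 5.12 ± 0.561 CPM in WT and 5.88 ± 0.452 in the KO-labelled libraries at day 0, and at 1.24 ± 0.734 and 0.829 ± 0.905 at day 5 (SD, n = 2). It fell with culture in WT by 1.97 ± 0.60 on the log2 scale (adjusted p = 0.0165, edgeR) and in the KO-labelled libraries it fell by 2.78 ± 0.62 (adjusted p = 0.00237). The WT call was lost without WT replicate 1 of day 0 or WT replicate 2 of day 5. *Trim21* passed the filter on low counts only through its day 0 counts. *Fcrl1*, an Fc receptor-like gene of B cells, stood between 1.31 and 2.33 CPM in the group means and was called in none of the 5 comparisons. None of the 3 tested genes of this list was called between genotypes by edgeR or DESeq2, and at an unadjusted p under 0.05 there were 0 at day 0 and 1 (*Fcmr*) at day 5, where 13.8% and 14.1% of all genes had such a p.

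The wider pathway was read from 4 lists of 59 genes besides the 5 receptors, of which 39 passed the filter and were tested. Between genotypes 1 of the 39 was called at day 0 and 1 at day 5, against 1.8% and 1.63% of all genes. The median log2 fold change of the 39 was -0.01 at day 0 and 0.21 at day 5, beside -0.00172 and 0 over all tested genes. At an unadjusted p under 0.05, 6 of the 39 were higher and 2 lower at day 0, against 6.83% and 7% of all genes, and 9 were higher and 1 lower at day 5, against 8.8% and 5.29%. None was called in the interaction by edgeR, where 5 had an unadjusted p under 0.05 against 12.4% of all genes, and DESeq2 called 1 (*Lat*).

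The ITAM adaptors and partner chains, which would carry the signal of an activating receptor or complete FcRn, were tested for 7 of 9 genes. None of the 7 was called between genotypes on either day by edgeR or DESeq2, with 1 (*Cd79b*) at an unadjusted p under 0.05 at day 0 and 0 at day 5, against 13.8% and 14.1% of all genes. *B2m*, the FcRn light chain, stood at 5784 CPM in WT and 6517 CPM in the KO-labelled libraries at day 0, and its log2 fold change was 0.17 at day 0 and -0.24 at day 5, while *Fcgrt* was lower by more than 1 on the log2 scale on both days. *Cd247*, the ITAM-bearing zeta chain of the T-cell receptor, stood at 793 CPM in WT and 723 CPM in the KO-labelled libraries at day 0, and at 424 and 455 CPM at day 5. *Tyrobp*, the ITAM adaptor DAP12, had at most 4 counts and was not tested.

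In the activating cascade, 22 of 27 genes were tested. *Lat*, the adaptor that links kinases to phospholipase C, stood at 1542 and 1765 CPM in WT and 1173 and 1105 CPM in the KO-labelled libraries at day 0. It was lower in the latter by a log2 fold change of -0.54 ± 0.11 (adjusted p = 0.0269, edgeR), and over 17 alternatives its adjusted p ranged from 0.00140 to 0.271. The call was lost when either WT or either KO-labelled library of day 0, or KO-labelled replicate 1 of day 5, was left out. At day 5 its log2 fold change was 0.05 ± 0.11.

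*Lat2*, the LAT-related adaptor known as NTAL and described mostly in B cells, mast cells and NK cells, differed at day 5. Its level was 10.03 and 12.98 CPM in WT, against 58.2 and 48.5 CPM in the KO-labelled libraries, a log2 fold change of 2.22 ± 0.30 (adjusted p = 0.00326, edgeR). Both KO-labelled libraries were above both WT libraries, and the call held in all 17 alternatives, with adjusted p between 4.62e-12 and 0.0416. At day 0 *Lat2* stood between 0.675 and 2.39 CPM, and its log2 fold change of 0.83 ± 0.57 did not pass the test. *Syk*, the kinase that Fc receptors recruit in myeloid cells, had at most 7 counts. *Zap70*, its relative in T cells, stood between 73.0 and 117 CPM in the group means and was not called. Of the alternatives, only the fit without the filter called *Zap70* between genotypes, at day 0 (adjusted p = 0.0210, edgeR).

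Of the inhibitory genes 7 of 8 were tested and none was called between genotypes by edgeR, with 1 at an unadjusted p under 0.05 at day 0 and 3 at day 5, against 13.8% and 14.1% of all genes. At day 5 the closest to the threshold were *Dok1* and *Dok2*, adaptors that restrain Ras, and *Inpp5d*, which encodes the phosphatase SHIP1 that FcγRIIb recruits. Their log2 fold changes were 1.10, 0.64 and 0.67, with adjusted p = 0.0515, 0.0584 and 0.0793 (edgeR). *Dok1* passed in 7 of the 17 alternatives, *Dok2* in 8 and *Inpp5d* in 2, DESeq2 among them for all 3.

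**Figure D2:**
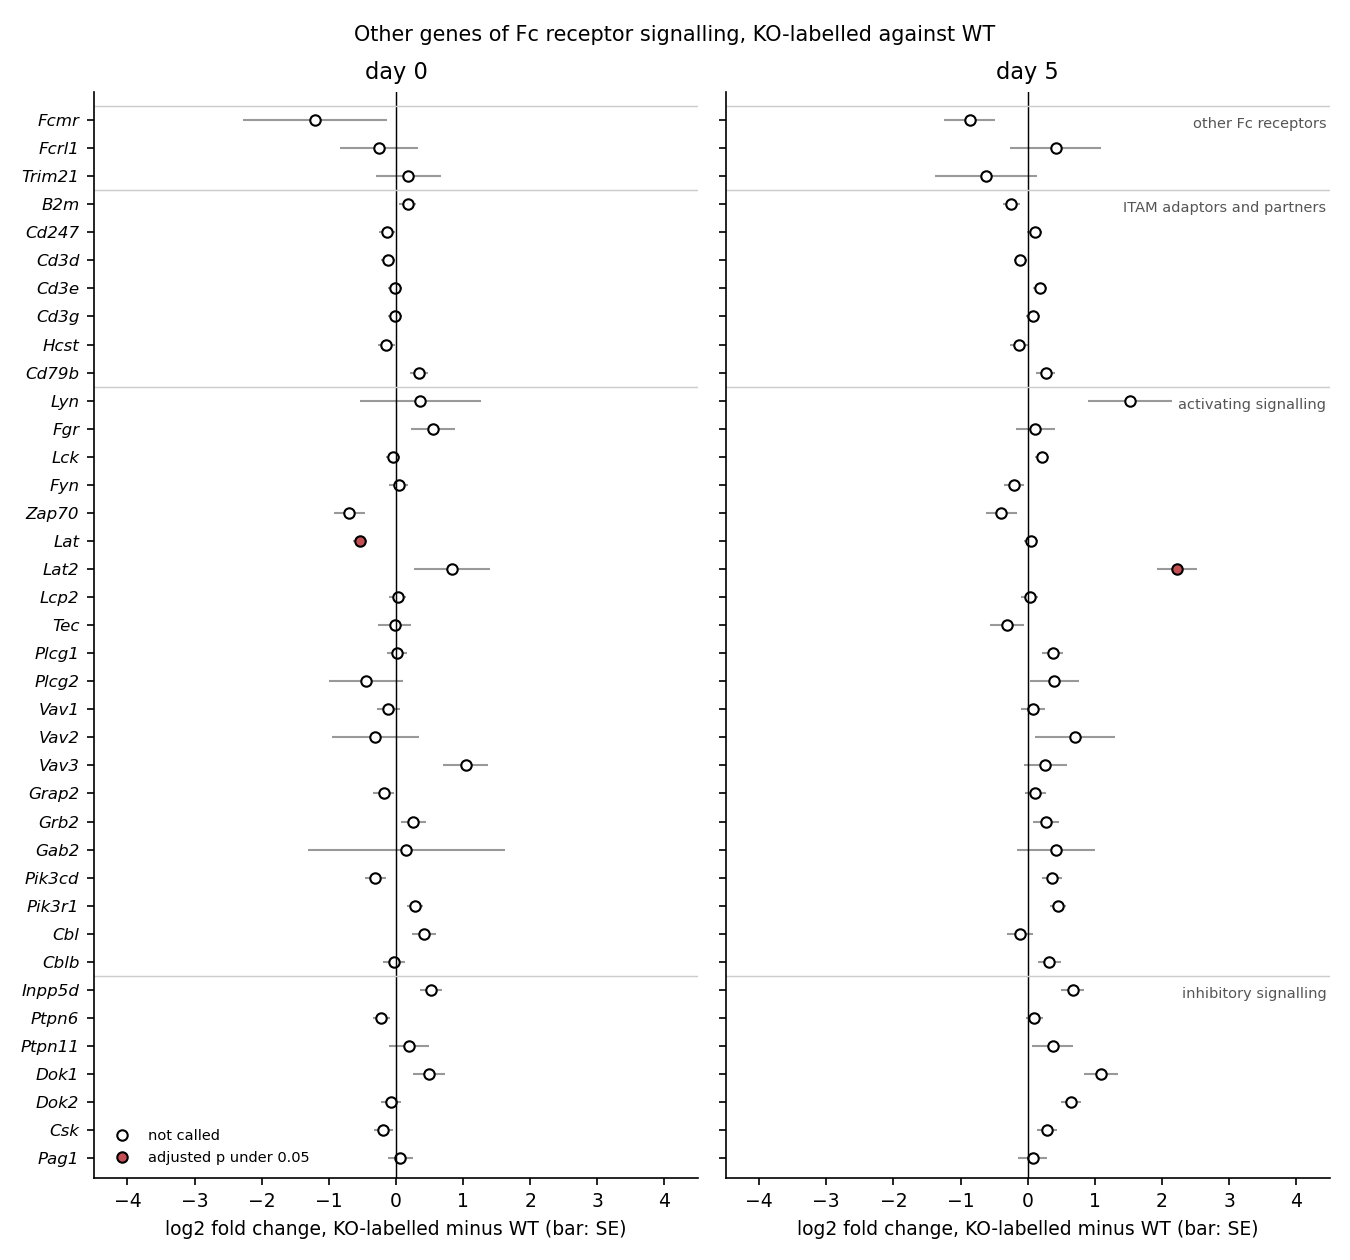
Log2 fold change of tested genes of the Fc receptor pathway, KO-labelled minus WT (horizontal axis), at day 0 on the left and day 5 on the right, with bars for the SE of the fit and genes in rows by list. Filled points mark the genes with adjusted p under 0.05, which are *Lat* at day 0 (-0.54) and *Lat2* at day 5 (2.22).

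With culture, genes of the pathway were called in both genotypes. In WT 22 of the 39 genes (56.4%) were called, against 48.3% of all genes, with 7 (17.9%) higher and 15 (38.5%) lower against 24.7% and 23.6%. In the KO-labelled libraries 18 (46.2%) were called, against 50.2%, with 7 (17.9%) higher and 11 (28.2%) lower against 26.2% and 24%. Whether these shares differ from those of all genes was not tested. In both, 16 genes were called in the same direction, which is 72.7% of the WT calls and 88.9% of the KO-labelled calls, against 78.4% and 75.3% for the calls over all genes. The median log2 fold change of the 39 was -0.21 in WT and -0.05 in the KO-labelled libraries, beside -0.04 and -0.05 over all tested genes.

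The genes that rose with culture in both genotypes were *Fcmr*, *Gab2*, *Lat2*, *Plcg2*, *Fgr* and *Dok2*. *Gab2*, a scaffold for phosphatidylinositol 3-kinase, had 1 summed count in WT and 2 in the KO-labelled libraries at day 0 and 27 and 40 at day 5, a ratio of 27.6 (exact interval 4.55 to 1129) and 32.0 (8.29 to 273). Like *Fcmr*, *Gab2* passed the filter on low counts only through its day 5 counts, so its calls are given as a description. *Lat2* rose by a log2 fold change of 3.497 in WT and 4.89 in the KO-labelled libraries. *Plcg2*, a phospholipase C, rose by 2.52 and 3.36. The Src family kinase *Fgr* rose by 1.59 and 1.15, where the second call was lost without KO-labelled replicate 1 of day 5, and *Dok2* by 0.82 and 1.54. *Lyn*, the Src family kinase that starts Fc receptor signalling in B and mast cells, rose by 2.89 in the KO-labelled libraries (adjusted p = 0.00281, edgeR), and its value in WT was 1.73 (adjusted p = 0.114). It too passed the filter only through its day 5 counts.

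Other genes of the same lists fell with culture in both genotypes. *Cd247* fell by 0.90 in WT and 0.67 in the KO-labelled libraries on the log2 scale, *Cd3e* by 0.91 and 0.70, and *Hcst*, the adaptor DAP10, by 0.93 and 0.91. *Cd79b*, a chain of the B-cell receptor, fell by 0.83 and 0.90. *Cd3d* and *Cd3g* of the same list did not pass the test, at 0.02 and -0.14 in WT and 0.04 and -0.05 in the KO-labelled libraries. *Pag1*, which holds the inhibitory kinase CSK at the membrane, fell by 1.49 and 1.47. *Pik3r1*, *Vav1* and *Grap2* fell in both as well, by between 0.41 and 0.72. *Pik3cd*, *Lat*, *Lck*, *Csk* and *Ptpn6* fell in WT by between 0.39 and 0.85, and *B2m* rose by 0.41. *Cbl* fell by 0.74 in the KO-labelled libraries. Several of these calls were near the threshold. In the KO-labelled libraries *Grap2* held in 6 and *Vav1* in 13 of 17 alternatives, and *Cbl* was lost without replicate 1 of day 5. In WT the calls of *B2m*, *Csk*, *Ptpn6* and *Vav1* were lost without replicate 2 of day 0, those of *B2m*, *Csk* and *Ptpn6* also without replicate 2 of day 5, that of *Ptpn6* without replicate 1 of day 0 and that of *B2m* under scaling by library totals. No gene of the lists passed the interaction test in edgeR, so genes called in 1 genotype alone were not shown to differ between genotypes.

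**Figure D3:**
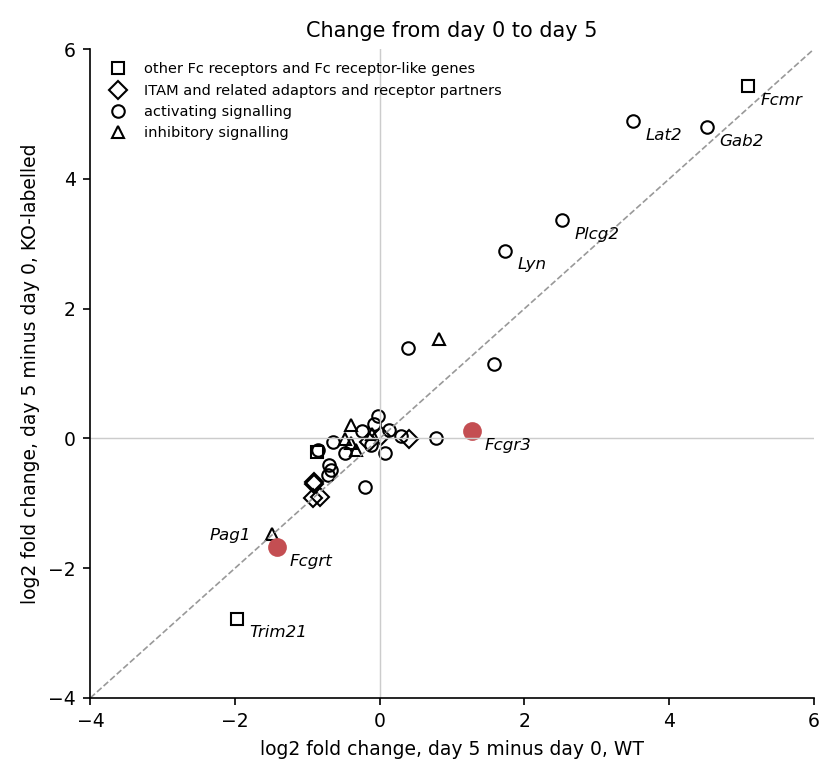
Log2 fold change from day 0 to day 5 in WT (horizontal axis) against that in the KO-labelled libraries (vertical axis) for tested pathway genes (open symbols by list) and for *Fcgr3* and *Fcgrt* (filled), with a dashed line of equality. *Fcgrt* lies near the line at -1.42 and -1.68, and *Fcgr3* lies below it at 1.27 and 0.11.

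Since 4 of the 5 genes share a stretch of chromosome 1, the genes around *Fcgr3* were compared as well. Of 83 annotated genes within 1 Mb of its start, other than the receptors, 37 were tested, and none was called lower in the KO-labelled libraries on either day by edgeR or DESeq2, where 0.889% of all genes were called lower at day 0 and 0.318% at day 5. At such shares 37 genes would mostly hold no call, so this count does not set *Fcgr3* apart from its neighbours. By edgeR 1 neighbour was called higher on each day, against 0.913% and 1.31% of all genes. At an unadjusted p under 0.05, 8 of the 37 neighbours were higher and 2 lower at day 0, against 6.83% and 7% of all genes, and 7 were higher and 0 lower at day 5, against 8.8% and 5.29%. At day 0 *Cd48*, a SLAM-family surface glycoprotein 617 kb away, was higher. It stood at 328 and 290 CPM in WT and at 621 and 506 CPM in the KO-labelled libraries, a log2 fold change of 0.87 ± 0.14 (adjusted p = 0.00665, edgeR), and the call was lost when either WT library of day 0 was left out (highest adjusted p over 17 alternatives 0.146). At day 5 *Ppox*, an enzyme of haem synthesis 216 kb away, was higher. It stood at 43.8 and 43.5 CPM in WT and at 88.1 and 79.3 CPM in the KO-labelled libraries, a log2 fold change of 0.94 ± 0.15 (adjusted p = 0.00931), and the call was lost when either KO-labelled library of day 5 was left out (highest adjusted p 0.104). *Cfap126*, the nearest tested neighbour at 49.0 kb, had 3 and 0 counts in WT and 21 and 17 in the KO-labelled libraries at day 0, and 6 and 7 in WT and 26 and 38 in the KO-labelled libraries at day 5. Its groups did not overlap on either day, with the KO-labelled libraries higher, where *Fcgr3* was lower. Its log2 fold changes of 2.91 ± 0.84 and 2.14 ± 0.61 did not pass the test (adjusted p = 0.125 and 0.118, edgeR), and of the alternatives it passed without the filter alone, on both days. The log2 fold changes of the 37 neighbours ranged from -1.66 to 2.91 at day 0 and from -1.04 to 3.84 at day 5, with medians of 0.11 and 0.13.

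**Figure D4:**
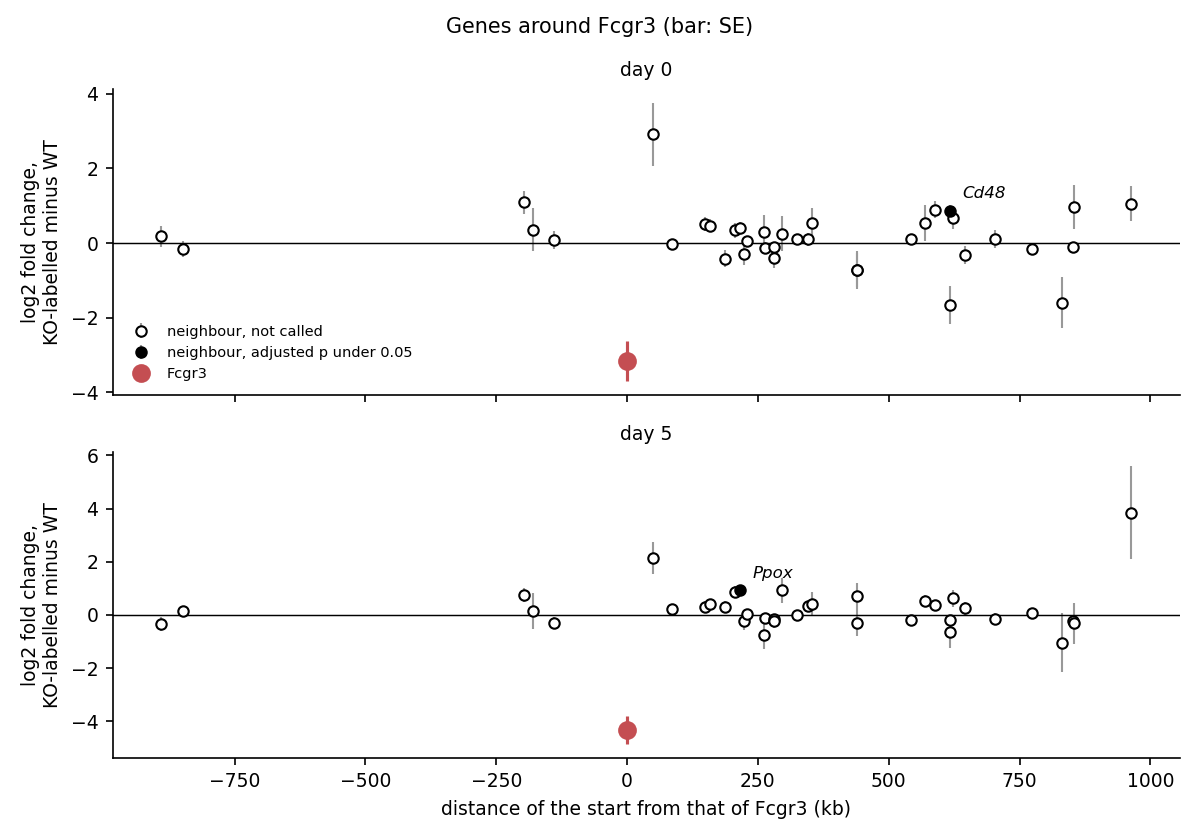
Log2 fold change, KO-labelled minus WT (vertical axis, with bars for the SE of the fit), of *Fcgr3* and the 37 tested genes around it against the distance of their start from that of *Fcgr3* in kb (horizontal axis), at day 0 above and day 5 below. *Fcgr3* lies at -3.16 and -4.32, and the filled neighbours with adjusted p under 0.05 are *Cd48* at day 0 and *Ppox* at day 5, both higher.

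The genes whose pattern over the 8 libraries was most like that of *Fcgr3* were *Slpi*, *Gm9967*, *Chchd2*, *Wdfy1* and *Nubpl*, among 10639 tested genes with a mean of at least 3 CPM. Likeness was the root mean square difference of log2 CPM after centring each gene, which was between 0.961 and 1.121 for these 5 and had a median of 1.73 over all genes compared. *Slpi*, a secreted inhibitor of leukocyte proteases, stood at 6.69 ± 0.865 CPM in WT and 3.95 ± 3.0 in the KO-labelled libraries at day 0 (SD, n = 2) and at 14.0 ± 4.84 and 3.36 ± 0.593 CPM at day 5. The 2 KO-labelled libraries of day 0 thus lay far apart. In WT, *Gm9967* was lower at day 5 than at day 0, at 9.79 against 24.4 CPM, where *Fcgr3* was higher. *Chchd2*, *Wdfy1* and *Nubpl* stood at 22.1, 40.2 and 5.87 CPM in WT at day 0 and at 38.0, 46.8 and 7.25 CPM at day 5. For *Fcgrt*, which was added to this search after its values were seen, the nearest genes were *1810041H14Rik*, *Gm45055*, *Actn2*, *Grifin* and *Aqp3*, between 0.326 and 0.369 against a median of 1.04. *Actn2*, an actin cross-linking protein, stood at 117 and 48.7 CPM at day 0 and at 25.1 and 15.0 CPM at day 5. *Fcer1g* did not pass the filter, so no likeness is given for it.

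Marker lists of other cells moved with the groups to different degrees. The summed level of 8 macrophage and monocyte markers was between 188 and 200 CPM in WT and between 242 and 313 CPM in the KO-labelled libraries at day 0, and between 384 and 517 CPM and between 472 and 773 CPM at day 5. Most of it came from *Ly6c2*, which CD8 T cells also carry. The summed level of 8 B cell markers was between 147 and 186 CPM at day 0 and between 75.3 and 88.7 CPM at day 5, most of it from *Cd79b*. By summed level the B cell list was higher in the KO-labelled libraries of each day without overlap, and the macrophage list at day 0. These sums followed *Cd79b*, at 120 CPM in WT and 152 CPM in the KO-labelled libraries at day 0, and *Ly6c2*, at 177 and 262 CPM. The neutrophil list at day 0 and the NK cell and endothelial lists at day 5 were also higher in the KO-labelled libraries without overlap. *Cd74*, the second most abundant of the B cell list, went the other way, at 29.9 CPM in WT and 17.6 CPM in the KO-labelled libraries at day 0 and at 6.49 and 5.65 CPM at day 5. *Cd79a* had 6 and 10 counts in WT and 20 and 4 in the KO-labelled libraries at day 0, and 2 and 0 in WT and 9 and 2 in the KO-labelled libraries at day 5, where 1 library held most of the counts of each group. Single macrophage markers did not all move together. *Cd68*, the second most abundant of that list at day 5, stood at 2.91 and 3.66 CPM in WT and the KO-labelled libraries at day 0 and at 33.8 and 57.3 CPM at day 5. *Csf1r* stood at 8.45 and 9.64 CPM in WT and the KO-labelled libraries at day 0, *Itgam* at 4.19 and 2.30 and *Lyz2* at 1.78 and 0.305. The WT level of *Lyz2* rested on replicate 2, with 1 count in replicate 1 and 15 in replicate 2, against 5 and 1 in the KO-labelled libraries. At day 5 these stood at 3.68 and 4.20, 0.504 and 1.30, and 0.120 and 0 CPM. The summed level of 7 NK cell markers was between 1951 and 2250 CPM at day 0 and between 3277 and 4190 CPM at day 5, nearly all of it from *Nkg7* and *Eomes*, which CD8 T cells express. Among the others, *Klrb1c* had 4 and 2 counts in WT and 6 and 3 in the KO-labelled libraries at day 0, and 5 and 4 in WT and 0 and 1 in the KO-labelled libraries at day 5. *Ncr1* had 4 and 2 counts in WT and 0 and 3 in the KO-labelled libraries at day 0, and 3 and 0 in WT and none in the KO-labelled libraries at day 5. The 5 neutrophil markers summed to at most 1.80 CPM, with *S100a9* at 0, and the 5 mast cell and basophil markers to at most 8.41 CPM. The 6 dendritic cell markers summed to at most 16.6 CPM, with *Xcr1* at 3.41 CPM in WT (13 and 20 counts) and 1.60 CPM in the KO-labelled libraries (16 and 10 counts) at day 0. The 3 CD4 T cell markers summed to between 1.35 and 3.56 CPM in WT and between 6.02 and 6.24 CPM in the KO-labelled libraries at day 0. At day 5 they summed to between 2.64 and 3.21 CPM. *Cd40lg* of that list had 9 and 5 counts in WT and 66 and 21 in the KO-labelled libraries at day 0. The 5 endothelial and stromal markers summed to at most 392 CPM, nearly all of it from *Pecam1*, which T cells also express, with *Cdh5* at no more than 1 count. The part of other cells in the levels of the 5 receptors was not tested.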

How the data were processed

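The authors deposited 1 table of raw counts per library, with a row per gene symbol and a few summary rows from HTSeq. Per the labels, Trizol-extracted total RNA was made into libraries with an NEBNext Ultra RNA kit and read to 50 bases. The submitters' processing notes name HISAT2 2.1.0, HTSeq 0.11.1 and mm10 (GRCm38). The annotation and the strand setting are not given in the sources used here. Genes held between 21.2% and 24.5% of all records, and the summary rows, which name no gene and were left out, held the other 75.5% to 78.8%. Reads not uniquely aligned made up between 31.8% and 37.4% of records.

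All 8 libraries entered 1 edgeR 4.0.16 quasi-likelihood fit (R 4.3.3) with 1 coefficient for each group, TMM scaling (trimmed mean of M-values) and the default low-count filter (minimum count 10), which left 12597 genes. Tests were two-sided and adjusted by the Benjamini-Hochberg method over those genes at 0.05. The biological coefficient of variation was 15.0%. The pipeline was checked on simulated counts. CPM used TMM-scaled totals. Interval bounds are exact at 95%, and the floor was 3 counts, both for counting error only. Genes were placed with GENCODE M21 on GRCm38, and upstream sequences came from RefSeq, where all 5 receptors matched.

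The receptors and the gene lists were chosen with earlier results of these data known. Named by rule were the 5 receptors, *Satb1*, called genes of the pathway lists with values for up to 5 per list and comparison, other Fc receptors of at least 1 CPM, up to 8 called neighbours and the 5 genes most like *Fcgr3*. The other genes named, such as *Syk*, *Zap70*, *Fcgr1*, *Tyrobp*, *Dok1*, *Inpp5d* and *Cfap126*, were picked once their values had been seen. Some listed genes that enter the counts are not reported here by name. Alternative settings were size factors from DESeq2, library totals, no filter, at least 5 CPM in 2 libraries, the edgeR 4 form, DESeq2 1.42.0, the replicate number as a block, thinning to the smallest total, only the 4 libraries of a comparison and leaving out each library in turn.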

Additional observations from a re-analysis of the deposited data

Results flagged for a closer look

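The genotype difference of *Satb1* itself differed between the days by a test of that difference. The genotype by day interaction of *Satb1* was -1.34 ± 0.21 (log2, edgeR, adjusted p = 0.0269), with KO-labelled libraries above WT at day 0 (0.51 ± 0.15, adjusted p = 0.125) and below WT at day 5 (-0.84 ± 0.15, adjusted p = 0.0162), in 2 of 2 libraries each time. *Fcgr3* and *Fcgrt* were lower in the KO-labelled libraries on both days, and their relation to the *Satb1* level was not tested.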

How the results depend on the processing

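Directions were kept in all alternatives for *Fcgr3* and *Fcgrt* between genotypes. Over the libraries left out in turn, the log2 fold change of *Fcgr3* ranged from -3.63 to -2.57 at day 0 and from -4.37 to -4.26 at day 5, and that of *Fcgrt* from -1.29 to -1.06 and from -1.65 to -1.26. Thinned to the smallest total, *Fcgr3* at day 5 was -3.996. On library totals, KO-labelled *Fcgr3* at day 5 was 0.522 CPM and KO-labelled *Fcgrt* at day 0 was 19.2 CPM, and 18 of 20 such means moved by less than their SD.

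Of 118 counts of calls, 91 stayed within 1.5 times the reported one. The 27 that moved were all between genotypes or in the interaction, and no count with culture moved. Pathway genes called between genotypes at day 0 numbered 2 without the filter and 0 to 1 with a library left out. At day 5 they numbered 4 without the filter and by DESeq2, 3 at 5 CPM, in the edgeR 4 form and when thinned, and 1 to 3 with a library left out. In the interaction DESeq2 called 1 where edgeR called 0. Neighbours called at day 0 numbered 2 on library totals and by DESeq2, 3 without the filter and 0 to 2 with a library left out. At day 5 they numbered 3 without the filter, 2 by DESeq2 and 0 to 1 with a library left out. Why these counts moved was not tested.

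With the replicate number as a block, 2 neighbours were called at day 5 (*Ppox* and *B4galt3*). Deviations of same-numbered libraries correlated at 0.12 between the days in WT and 0.23 in the KO-labelled libraries, and between -0.07 and 0.00438 for the other pairs of groups. The labels tie the numbers to no mouse or batch, so they were not taken as pairs, and the block moved no other count of calls by over 1.5 times. Scaling by library totals shifted the median of all genes by -0.14 in WT culture and -0.18 in KO-labelled culture. With 0 to 11 counts in each library, differences of *Fcgr2b*, *Fcgr4* and *Fcer1g* below several fold were not detectable.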
